A study of Mus musculus with 4 samples.

Results

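The chromatin and Mediator genes Ep400, Brd9, Nsd2, Phf21a, Tasor, Cdk8 and Med12l were examined as hosts of circular RNAs (circRNAs) in mouse heart. A circRNA forms when the end of a downstream exon is joined to the start of an upstream one, and a read across that back-splice identifies it. Taking every listed circRNA with one of these 7 genes in its host label gave 10 circRNAs of 1046 in the series, with 143 of 7303 back-splice reads. No label of theirs held a further gene. The libraries were made from total RNA of C57BL/6 heart, sham 1 and sham 2 after sham surgery and I/R 3 and I/R 4 from a model of myocardial ischemia-reperfusion (I/R), where the blood supply is cut off and then returned. Values given in a row follow the library numbers, 1 to 4. The labels give no age and no time after reperfusion. Nor do they tie libraries to single animals, so the spread within a group may be technical. The hosts were chosen by function among genes whose back-splice reads in sham and I/R were already known. Their reads are therefore given below as a description. Fits over all circRNAs and over all hosts are also given, but their values for these 7 hosts are not read as tests.

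These genes act on the packing and reading of DNA. Ep400 is the remodelling ATPase of the TIP60-p400 complex, which exchanges and acetylates histones at promoters, and Brd9 is a bromodomain subunit of a SWI/SNF remodeller. Nsd2 is a histone lysine methyltransferase, Phf21a a histone reader in the LSD1-CoREST demethylase complex, and Tasor the scaffold of HUSH, which silences transposons and other integrated DNA. Cdk8 is the kinase of the Mediator kinase module, and Med12l is a paralog of Med12, the module's subunit that activates the kinase. Mediator carries signals from transcription factors to RNA polymerase II. A circRNA of such a gene reports splicing of its transcript and says nothing about the amount of the protein.

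The back-splices are shown first, because each is a sequence that the linear transcript lacks. Every one of the 10 spans had the length of an exon pair in a GENCODE M21 (GRCm38) transcript of its host, at a single position in that gene, so exon numbers could be assigned without moving coordinates between builds. In each line the lower-case letters end the donor exon and the capitals begin the acceptor exon, read 5′ to 3′ on the transcript strand. They come from the annotated transcripts, not from the reads. Sequences of 15 bases per side are given where the acceptor exon begins outside the coding part, and of 25 bases elsewhere.
Ep400, end of exon 2 to start of exon 2: gttatcaacgatgagGGGAACAGTACATTG
Ep400, end of exon 3 to start of exon 2: cagcaaccgtttcagGGGAACAGTACATTG
Brd9, end of exon 12 to start of exon 10: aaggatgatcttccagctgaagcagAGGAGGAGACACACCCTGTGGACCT
Nsd2, end of exon 4 to start of exon 3: ataccaaacttaaagTGTTCTAAGAACCAA
Phf21a, end of exon 6 to start of exon 2: ttgagtgagaaacagGGGACTGGAGAGCTG
Tasor, end of exon 6 to start of exon 2: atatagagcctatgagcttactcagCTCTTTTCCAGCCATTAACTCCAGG
Tasor, end of exon 16 to start of exon 2: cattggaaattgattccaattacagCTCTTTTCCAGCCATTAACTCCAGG
Cdk8, end of exon 4 to start of exon 2: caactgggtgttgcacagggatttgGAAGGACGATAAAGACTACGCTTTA
Cdk8, end of exon 6 to start of exon 4: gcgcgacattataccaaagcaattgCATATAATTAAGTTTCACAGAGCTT
Med12l, end of exon 4 to start of exon 2: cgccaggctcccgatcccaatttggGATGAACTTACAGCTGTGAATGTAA
The Ep400 pair shares its acceptor, as the Tasor pair does, and differs in the donor. The Cdk8 pair meets at exon 4, which ends one circle and begins the other.

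**Figure D1:**
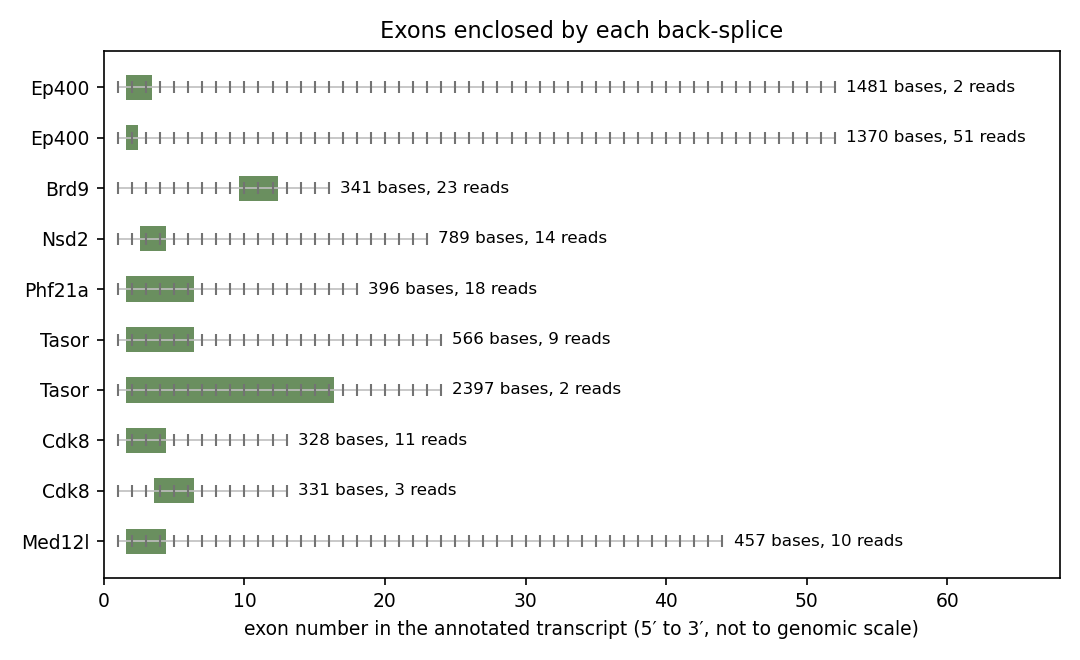
Exons enclosed by each back-splice, drawn by exon number along the best-ranked annotated transcript that holds the exon pair (ticks are exons, the bar spans the circle), with the summed exon length and the reads over the 4 libraries. The bar begins at exon 2 in 7 of 10 rows, and Brd9 has the bar farthest from the 5′ end, at exons 10 to 12.

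Depth was low. The libraries held between 1627 and 1982 back-splice reads, and the lowest count in any file was 2, so a circRNA absent from a library's list had 0 or 1 read there. The labelled tissue was checked on hosts that mark cell types. Of 18 cardiomyocyte markers 11 had reads, 180 to 386 per library. A single one of 10 endothelial markers had 2 to 4 reads per library, while the 10 fibroblast, 10 leukocyte and 8 mural cell markers had 0 in every library, though leukocyte or fibroblast circRNAs may lie below this depth. In tissue RNA, fewer cells of a type and less RNA per cell cannot be told apart.

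Together the 7 hosts took 1.22% of the back-splice reads in sham 1 (23 reads, 95% Clopper-Pearson interval 0.773 to 1.82%), 1.23% in sham 2 (20 reads, 0.752 to 1.89%), 3.44% in I/R 3 (62 reads, 2.64 to 4.38%) and 1.92% in I/R 4 (38 reads, 1.36 to 2.62%). Such intervals reflect counting error alone, as no molecular identifiers tell copies of a molecule apart. The I/R libraries lay above the sham libraries, with means of 2.68 ± 1.07% and 1.22 ± 0.0087% (SD, n = 2). The difference of 1.45 percentage points rested in part on I/R 3, the only library that listed Brd9. It was 0.694 without I/R 3, 2.21 without I/R 4 and 0.816 when Brd9 was left out, where the I/R shares were 2.16% and 1.92%. Since the hosts were picked with these reads in view, nothing is read from the difference.

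**Figure D2:**
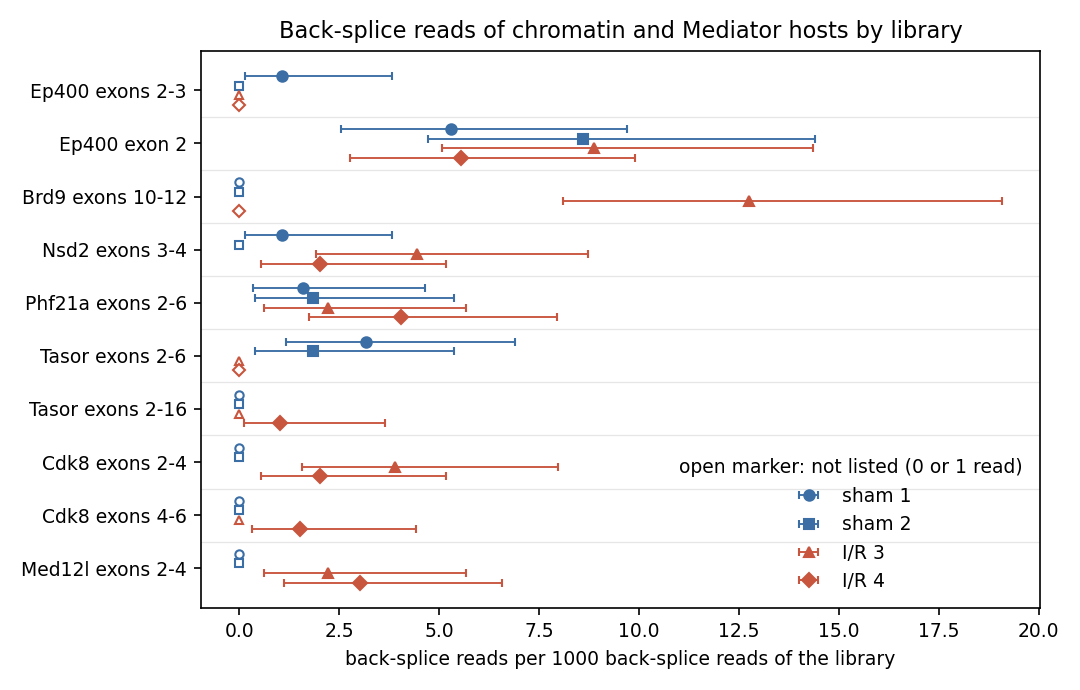
Back-splice reads of each circRNA per 1000 back-splice reads of the library, with 95% Clopper-Pearson intervals; open markers at 0 stand for libraries in which the circRNA was not listed. Ep400 exon 2 has a filled marker in all 4 libraries with overlapping intervals, Brd9 in I/R 3 alone, and Cdk8 exons 2 to 4 and Med12l in both I/R libraries.

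Among the remodellers, Ep400 was the steady host. Its main circRNA (mm9 chr5:111184416-111185785, minus strand, exonic) is exon 2 closed on itself, 1370 bases, and was the only circle of 1 exon among the 10. It had 10 reads in sham 1, 14 in sham 2, 16 in I/R 3 and 11 in I/R 4, which made it the 16th circRNA of the series by reads. Per 1000 back-splice reads this was 5.29, 8.60, 8.87 and 5.55, with a sham mean of 6.95 ± 2.34 and an I/R mean of 7.21 ± 2.35 (SD, n = 2). The groups overlapped, and their means differed by less than the spread within either. The fitted log2 fold change of I/R against sham was 0.19 with a standard error (SE) of 0.38 and turned to -0.26 without I/R 3. With so few reads, an SE of this kind can understate the counting error.

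A second Ep400 circRNA (mm9 chr5:111182823-111185785) was listed in sham 1 alone, with 2 reads. The file calls it intronic, but its span equals that of exons 2 and 3 in another Ep400 transcript of GENCODE M21, where exon 3 has 111 bases.

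Brd9 presented the opposite picture. Its circRNA (mm9 chr13:74085125-74089093, plus strand, exonic) encloses exons 10 to 12, 341 bases, and had 23 reads in I/R 3 and was not listed in sham 1, sham 2 or I/R 4. In I/R 3 it came 10th by reads, at 12.7 per 1000 (8.10 to 19.1). The other I/R library, with at most 1 read, was no different from the sham libraries. Of the 674 circRNAs listed in a single library, which had a median of 2 reads, 2 had more. The 23 read names were distinct and spread over all 4 lanes (3, 3, 10 and 7 reads) and 23 tiles of the flow cell. Without molecular identifiers, this spread does not show that the reads came from 23 separate molecules. It is also the only one of the 10 without a circBase identifier, against 709 of 1046 circRNAs with one in the series.

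The histone-modifying and silencing hosts were less abundant. The Nsd2 circRNA (mm9 chr5:34185761-34188916, plus strand, exonic) joins exons 3 and 4 of the longer transcript, exons 1 and 2 of shorter ones, 789 bases. It had 2 reads in sham 1, was not listed in sham 2, and had 8 in I/R 3 and 4 in I/R 4. Both I/R libraries lay above both sham libraries, at 4.43 and 2.02 reads per 1000 against 1.06 and 0. The fitted log2 fold change was 2.45 (SE 1.15). It was 1.44 without sham 2 and 1.73 without I/R 3. Without sham 1 no listed sham read remained, and the fitted value was 5.63.

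Phf21a (mm9 chr2:92054206-92070881, plus strand, exonic) gave 1 circRNA, of exons 2 to 6 and 396 bases in the best-ranked transcript. In other transcripts its span is exons 2 to 5 or 3 to 7. This circRNA was listed in every library, with 3 reads in sham 1, 3 in sham 2, 4 in I/R 3 and 8 in I/R 4. Per 1000 reads the values were 1.59 and 1.84 in sham and 2.22 and 4.04 in I/R, so that the groups did not overlap while I/R 3 stood close to sham. The fitted log2 fold change was 0.99 (SE 0.56), and 0.42 without I/R 4.

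Tasor was the host whose reads lay mostly in sham. The circRNA of exons 2 to 6 (mm9 chr14:28251785-28255806, plus strand, exonic, 566 bases) had 6 reads in sham 1 and 3 in sham 2 and was listed in neither I/R library. A longer one from the same acceptor, exons 2 to 16 (mm9 chr14:28251785-28279497, 2397 bases), had 2 reads in I/R 4 alone. Summed over both, the host had 6, 3, 0 and 2 reads, with the I/R libraries below the sham libraries (fitted log2 fold change -1.98, SE 1.48). Without I/R 3 it was -1.04. Without I/R 4 no listed I/R read remained, and the fitted value was -5.20. At 2 reads, a second circle could be present in the other libraries and go unlisted.

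Both Mediator hosts had listed circRNAs in I/R only. The main Cdk8 circRNA (mm9 chr5:147071081-147083311, plus strand, exonic) encloses exons 2 to 4, 328 bases, and had 7 reads in I/R 3 and 4 in I/R 4. Its values were 3.88 per 1000 reads (1.56 to 7.98) and 2.02 (0.55 to 5.16), while each sham library had at most 1 read. A second Cdk8 circRNA, exons 4 to 6 (mm9 chr5:147083171-147097815, 331 bases), was listed in I/R 4 with 3 reads. It shares the 141 bases of exon 4 with the first. Summed over the host, Cdk8 had 7 reads in each I/R library.

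The Med12l circRNA (mm9 chr3:58835468-58846335, plus strand, exonic) is also an exon 2 to 4 circle, of 457 bases in the best-ranked transcript and with 1 more exon in others. It had 4 reads in I/R 3 and 6 in I/R 4, or 2.22 (0.604 to 5.67) and 3.03 (1.11 to 6.58) per 1000. No fold is given for these hosts, since the sham reads are known only to be 0 or 1 per library. Med13l, a further kinase module subunit and the most abundant Mediator host, had 11 and 9 sham reads and 11 and 8 I/R reads, so the module's circRNAs were not all confined to I/R.

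In the fit across all circRNAs (edgeR's quasi-likelihood test), which needed 10 reads over the libraries and reads in at least 2, the members tested were the main circRNAs of Ep400, Phf21a, Nsd2, Cdk8 and Med12l. None of these 5 passed an adjusted p of 0.05, as none of the 158 tested did (0% called, with 9 at an unadjusted p under 0.05 in edgeR, 6 in DESeq2 and 7 in limma-voom). Med12l stood just inside the read limit with 10 reads and the shorter Tasor circle just outside it with 9; Brd9 was left out for being listed in 1 library. The groups did not overlap, with I/R higher, in 4 of the 5, against 17.7% of all tested circRNAs, and with I/R lower in 0 of the 5, against 20.9%. Over all 10, including untested ones, 2 were listed in both I/R libraries and neither sham library (3.06% of 1046), and 1 the other way round (3.73%). These counts follow from how the hosts were chosen and support nothing. On reads summed per host, 6 of the 7 were tested and none passed, nor did any of 153 hosts (0% called, edgeR, with 8 at an unadjusted p under 0.05, 4 in DESeq2 and 8 in limma-voom).

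Of the 10 circRNAs 3 pass in the authors' deposited table, which calls 11 of 1046 (1.05%). In the authors' deposited table Cdk8 exons 2 to 4 had a log2 fold change of 3.52 (adjusted p = 0.0343), Med12l 3.42 (adjusted p = 0.0343) and the shorter Tasor circle -3.26 (adjusted p = 0.0468). All 3 had no listed read in one of the groups. Brd9 did not pass in the authors' deposited table (log2 fold change 2.74, adjusted p = 0.299). A limma-voom fit without a filter gave the log2 fold changes of the authors' deposited table to within 2.1e-14, so it is no separate result. With no filter on reads, edgeR called 3 of 1046 circRNAs (0.287%), of which Brd9 was one, and none of the 3 that the authors' deposited table calls.

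Reads at the same splice sites that do not cross the back-splice, from linear transcripts or from inside the circle, were deposited wherever a circRNA was listed. At Ep400 exon 2 such reads numbered 62, 66, 42 and 41 in libraries 1 to 4, and at Phf21a 60, 48, 40 and 39. Both lay lower in both I/R libraries, as 37.3% of the 102 circRNAs listed in all 4 libraries did. Scaled for library size and composition, the fitted log2 fold changes were -0.54 (SE 0.24) for Ep400 and -0.36 (SE 0.24) for Phf21a, the latter -0.19 without sham 1 and -0.56 with library size only. Neither passed in edgeR, where 9 of the 102 did (8.82%).

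The circular share is the authors' fraction of the reads at a back-splice that are circular, with each back-splice read counted 2 times. Since it is made in part from back-splice reads that were known when the hosts were chosen, its values and fits are a description. The share was higher in both I/R libraries at Ep400 exon 2 and at Phf21a. Ep400 exon 2 had 24.4% and 29.8% in sham and 43.2% and 34.9% in I/R, with means of 27.1 ± 3.82% and 39.1 ± 5.87% (SD, n = 2). Phf21a had 9.1% and 11.1% in sham and 16.7% and 29.1% in I/R, with means of 10.1 ± 1.41% and 22.9 ± 8.77% (SD, n = 2). The groups did not overlap at either, as at 30.4% of the 102. For Ep400 the back-splice reads overlapped between groups while the non-junction reads did not. Fitted against the non-junction reads, the log2 fold change of the circular reads was 0.52 (SE 0.35) for Ep400 and 1.16 (SE 0.57) for Phf21a. Neither passed in edgeR (1 of 102 did, 0.98%), and the Phf21a value was 0.53 without I/R 4 and 1.78 without I/R 3. Phf21a had only 6 sham and 12 I/R back-splice reads. With so few reads, the SEs of both fits can understate the counting error.

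The remaining circRNAs have a circular share only where they were listed. Cdk8 exons 2 to 4 had 46.7% in I/R 3 and 50.0% in I/R 4, on 16 and 8 non-junction reads. Nsd2 had 17.4% in sham 1, 48.5% in I/R 3 and 23.5% in I/R 4. Med12l had 29.6% and 42.9% in the I/R libraries, and Brd9 44.2% in I/R 3. The medians over the 102 circRNAs ran from 9.45% in sham 1 to 11.8% in I/R 3. The rarer partner circles of Cdk8 and Ep400 stood lower than the main circle in the same library. Cdk8 exons 4 to 6 had 15.4% against 50.0% in I/R 4, and the second Ep400 circle 17.4% against 24.4% in sham 1. The Tasor circles had 18.5% and 13.6% in sham for exons 2 to 6 and 6.5% in I/R 4 for exons 2 to 16.

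**Figure D3:**
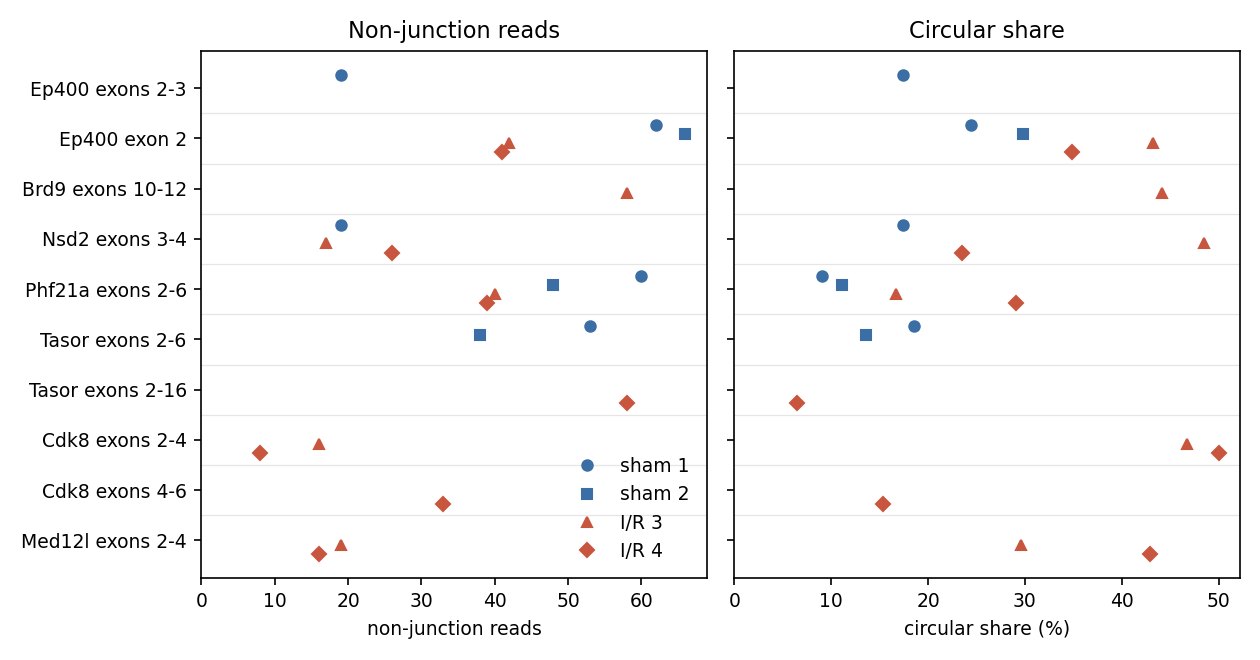
Non-junction reads (left) and circular share in percent (right) of each circRNA, 1 marker per library that lists it. At Ep400 exon 2 and Phf21a the I/R markers lie to the left of the sham markers for non-junction reads and to the right for the circular share; Cdk8 exons 2 to 4 reaches 50.0% in I/R 4.

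The exon structure is a property the choice of hosts did not use. In the best-ranked transcript, 7 of the 10 circles began at exon 2, the first exon preceded by an intron: both of Ep400, both of Tasor, and those of Phf21a, Cdk8 and Med12l. Among 864 other circRNAs matched to an exon pair in the same way, 37.7% began there. The 7 come from 5 genes and pairs share an acceptor, so they are not 7 independent cases. In some other matching transcripts the Phf21a and Med12l circles begin at exon 3. The intron before the circle ranged from 1517 bases at Brd9 to 29696 at Phf21a (median 13725, against 11339 for the others), and the intron after it had a median of 10042.5 bases against 9560.5. The median exon length enclosed was 511.5 bases, with 478 for the others, if all annotated exons between the ends are kept. The circles that did not begin at exon 2 were those of Nsd2, at exon 3, the second of Cdk8, at exon 4 after an intron of 3269 bases, and Brd9, at exon 10 between introns of 1517 and 2899 bases. The ends of the Brd9 circle lie in the coding part, as do both ends of the Tasor, Cdk8 and Med12l circles, while those of Ep400, Nsd2 and Phf21a begin in the 5′ untranslated part.

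Other chromatin and Mediator genes were taken from 6 lists covering 258 genes (Mediator, remodellers, acetyltransferases, methyltransferases, deacetylases with demethylases, and HUSH with heterochromatin). Of these, 39 had a listed circRNA, 32 of them outside the 7 hosts. Those 32 held 3.39%, 3.50%, 3.05% and 3.63% of the reads in libraries 1 to 4, and these groups overlapped. No comparison with the 7 hosts is drawn, since those were picked with their reads in view. Of the 32, 7 could be tested as hosts, and none passed in edgeR (4 fitted above 0 and 3 below, 0 at an unadjusted p under 0.05). Their median log2 fold change was 0.05, beside -0.03 over all 153 hosts.

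By list, 4 of 33 Mediator genes had reads: Med13l, Cdk8, Med12l and Med15, a tail subunit with 3 reads in sham 1. Med13l was fitted at -0.03 (SE 0.46). Of 47 methyltransferase genes and partners 10 had reads, led by the Polycomb methyltransferase Ezh2 with 8, 12, 12 and 5 reads in libraries 1 to 4 (log2 fold change -0.19, SE 0.57). Its partner Eed had 3, 2, 4 and 5 (0.87, SE 0.90), and the Nsd2 paralog Nsd1 had 0, 3, 0 and 7 (1.22, SE 1.88). The Ezh2 and Nsd1 groups overlapped. Those of Eed did not, with I/R higher, as in 18.3% of the 153 hosts tested.

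Of 59 remodeller genes 12 had reads. After Ep400 and Brd9 came the SWI/SNF subunit gene Arid1a with 4, 4, 6 and 3 reads (0.21, SE 0.76), Rsf1 with 0, 4, 0 and 4, and Chd2 with 0, 2, 0 and 5. None of these 3 separated the groups. Among 39 acetyltransferase genes 6 had reads, with Kat6b (5, 3, 3 and 2 reads) next to Ep400 (log2 fold change of Kat6b -0.60, SE 0.99). Per 1000 reads, Kat6b had 2.65 and 1.84 in sham and 1.66 and 1.01 in I/R, so its groups did not overlap. Among the 158 tested circRNAs, I/R lay lower in this way in 20.9%. Ep300 and Kat2b had 2 reads in 1 library each. Of 47 genes for CoREST, deacetylases and demethylases 4 had reads. There Jmjd1c, a demethylase family member, had 7 and 2 reads in sham and was not listed in I/R, while Kdm4c and Phf2 had 2 reads each in I/R 3. Of 39 HUSH and heterochromatin genes 5 had reads, with Morc3 at 2, 5, 2 and 5, Ehmt1 at 0, 0, 2 and 4 and Atf7ip at 0, 2, 2 and 0.

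**Figure D4:**
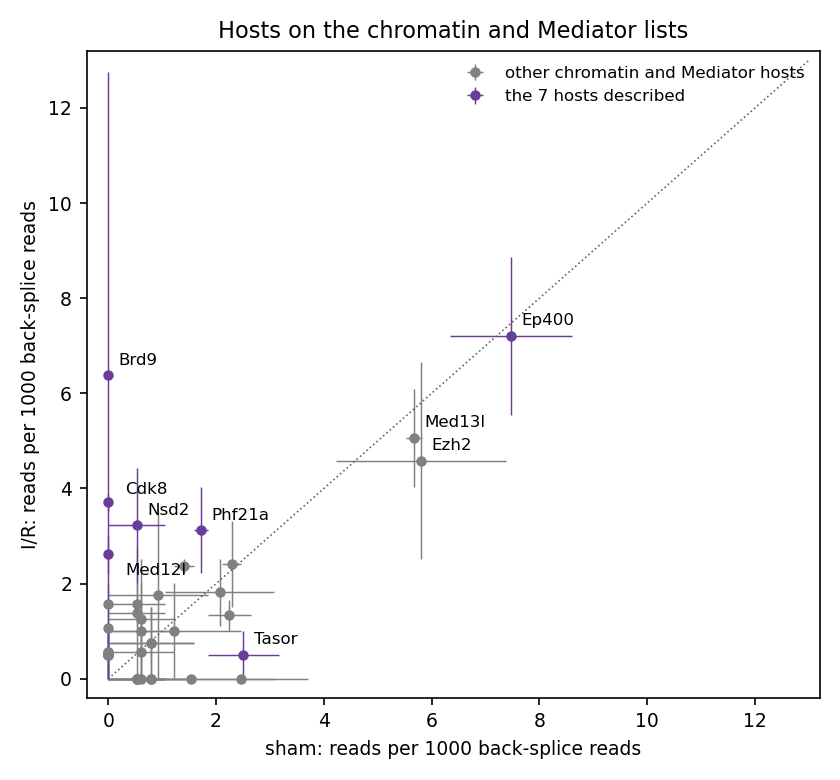
Mean reads per 1000 back-splice reads of each host on the 6 lists in sham (x axis) and I/R (y axis); bars join the 2 libraries of a group and the dotted line marks equal values. Ep400, Med13l and Ezh2 lie near the line, Cdk8, Med12l and Brd9 lie on the I/R axis, and the bar of Brd9 runs from 0 to 12.7.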

How the data were processed

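RNA sequencing of total RNA from 4 mouse heart libraries was analysed from the authors' per-library circRNA files. Per the file headers, these give counts of back-splice and of non-junction reads and a fraction made from both; the deposited fraction counts each back-splice read 2 times, against all reads at the site (largest deviation 0.0005). The deposited merged count matrix differed in 0 cells. The submitters' processing notes name HTSeq 0.9.1, BWA 0.7.5a-r405 and build mm9; which program called circRNAs is not stated in them. The authors' comparison table holds log2 fold changes, p-values and scores, per the file headers.

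Counts were fitted with edgeR 4.0.16 (R 4.3.3; TMM factors, quasi-likelihood test, Benjamini-Hochberg adjustment over all features tested, at least 10 reads over the libraries and reads in at least 2). Non-junction reads, and circular against non-junction reads with library as a block, were fitted over the 102 circRNAs listed in all 4 libraries. The SE was taken from the F statistic. DESeq2 1.42.0 and limma-voom (limma 3.58.1) were alternatives. The scripts were tested on simulated data, where recovery of changes was required only at a depth far above that of these libraries. Circles were matched to exon pairs of protein-coding GENCODE M21 transcripts by span length; 874 of 1003 circRNAs with a host matched at 1 position. Among matching transcripts, the best APPRIS rank and then the most exons decided. All 7 hosts were found in RefSeq, Tasor as Fam208a in GENCODE. The text names all members, the 3 list hosts with the most reads per list and, for each member, the 2 hosts nearest in reads, of which 1 is not reported here. Members and lists were chosen with earlier results of these data known.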

Additional observations from a re-analysis of the deposited data

How the results depend on the processing

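No paired analysis was possible because sham and I/R share no replicate number. Limma-voom without a filter was chosen after seeing the data. With no filter the circRNA calls rose from 0 to 3 in edgeR and 11 in limma-voom, a fit that matches the authors' deposited table, and the host calls from 0 to 1 in each; the members among them were Brd9 in edgeR (circRNA and host) and Tasor, Med12l and Cdk8 in limma-voom (circRNAs). DESeq2, limma-voom with the filter, other size factors, a limit of 20 reads and leaving out a library gave 0 circRNA and 0 host calls. Non-junction calls were 9, or 4 without TMM factors, and leaving out a library gave 1 to 8; circular against non-junction calls ranged from 0 to 2, and no member was among either. The difference in the members' share of reads (I/R minus sham) ranged from 0.694 to 2.21 percentage points without a library. The Ep400 circRNA fold ranged from -0.26 to 0.43 on the log2 scale without a library. The Ep400 host fold was 0.10, -0.037 without TMM factors and between -0.16 and 0.31 without a library (-0.016 without sham 1). Of 89 member folds under alternatives, 82 kept their sign and moved by less than their SE. Another 3 moved by more, and the 4 that changed sign were all of Ep400. These 89 hold only fits with a listed read in both groups. Nsd2 and Phf21a, with a single circRNA each, count both as circRNA and as host. Left out were every fold of Cdk8, Med12l and Brd9, among others. So were Nsd2 without sham 1 (5.63, main fit 2.45) and the Tasor host without I/R 4 (-5.20, main fit -1.98). Of the 10 circRNAs 5 were not tested, 4 with fewer than 10 reads and Brd9, listed in 1 library.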

Other observations

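Hosts with read profiles near those of the members were listed by the summed absolute difference, over the 4 libraries, in reads per 1000 back-splice reads. Ep400 lay nearest to Fhl2, a LIM domain protein of the sarcomere and nucleus, with 15, 14, 12 and 15 reads in libraries 1 to 4 (difference 5.82), and to Ogdh, a subunit of the oxoglutarate dehydrogenase complex, with 8, 12, 11 and 8 (7.63). Phf21a lay nearest to Ehbp1 (4, 3, 4 and 5 reads, 2.04) and to the Polycomb subunit gene Eed (3, 2, 4 and 5 reads, 2.13). Cdk8 lay nearest to Zfp512 (0, 0, 5 and 5 reads, 2.12) and Rab11a (0, 0, 5 and 4 reads, 2.62), and Med12l to Pwwp2a (0, 0, 3 and 5 reads, 1.06) and Zfp512 (1.06). Tasor lay near Fndc3b (5, 3, 0 and 0 reads, 1.54). Nsd2 lay nearest to the label Mir684-1 (2, 0, 7 and 3 reads, 1.06) and to Ube2k (3, 0, 5 and 3 reads, 2.70). Brd9 had no close neighbour; the nearest, Dennd4a and Mki67, each had 5 reads in I/R 3 alone (9.98). With reads this few, many hosts share a profile by their low numbers.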
